A study of Mus musculus with 4 samples.

Results

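Mitochondrial ribosomal protein genes were measured in 4 mouse liver samples. They were taken as the probes whose annotated gene symbol begins with Mrpl or Mrps followed directly by a digit. Mrpl stands for the large subunit of the mitochondrial ribosome and Mrps for the small subunit. This rule took 110 of 25697 probes and 76 of 16593 annotated genes: 68 probes of 47 large subunit genes and 42 probes of 29 small subunit genes. It used no measured value. Of the 71 genes that could be tested, 0 passed the adjusted threshold between knockout and control liver, against 0.795% of all rows. This does not show that their levels were equal. The fitted difference was under 0.5 in size on the log2 scale in 64 of the 71, against 7238 of all 9311 rows tested. It was below 0 in 22 of 27 small subunit genes and 26 of 44 large subunit genes, against 49.4% of all rows.

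The controls were liver samples with both Shp2 alleles floxed (Shp2Floxed/Floxed), labelled WT. The knockouts (Shp2hep-/-) were liver samples of albumin-Cre-positive mice, in which Cre is driven by the albumin promoter, active in hepatocytes. Shp2, the product of Ptpn11, is a phosphatase of receptor tyrosine kinase signalling. Each group held 2 samples, all from mice aged 2 months that had not been fasted, and the labels do not state that the samples were separate animals, so that p-values measure only the spread between these samples. All 4 RNAs were of whole liver, which also holds cells other than hepatocytes, and Shp2 was not measured by cell type.

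Mitochondria have their own ribosomes, which translate the few proteins still encoded in mitochondrial DNA, all of them core subunits of the respiratory chain and ATP synthase. The ribosomal RNAs come from mitochondrial DNA, whereas every protein of both subunits is encoded in the nucleus and imported. The small subunit holds the decoding centre, where messenger RNA is read, and the large subunit holds the peptidyl transferase centre and the exit tunnel. Many of the proteins have a counterpart in bacterial ribosomes and others occur only in mitochondria. Liver is rich in mitochondria and depends on this translation for its oxidative metabolism.

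Values are normalized log2 intensities, and a difference is knockout minus control on that scale, with the standard error (SE) of limma's model and n = 2 per group. A probe was tested if its detection p-value was below 0.05 on 2 or more arrays, and a gene was called at an adjusted p under 0.05 over all 9311 rows tested. The arrays lay on 1 BeadChip, the controls at its first positions and the knockouts at the next, and group cannot be told apart from position. Median raw intensity ran from 242.2 to 262 units, and 11542 to 12328 probes were above background on each array. Ptpn11 was 2.51-fold lower in knockout (adjusted p = 0.0599). Of 8 hepatocyte markers, 6 were detected on at least 2 arrays and Tat and Fgb on none. Those 6 had 2 higher and 4 lower fitted values in knockout (median −0.06). Among them, Alb read close to background, at 5.58 to 6.05, and was detected on 3 arrays. Lymphocyte and muscle markers were detected on no array, 3 and 4 genes being represented. Of the markers of other cell types, all 3 measured red blood cell genes, all 6 stellate cell and matrix genes and 5 of 6 Kupffer cell and monocyte genes had higher fitted values in knockout, with median differences of 1.29, 0.53 and 0.96 and 0 called. The log2 of their summed unlogged values, in which the brightest gene weighs most, ran from 13.53 to 14.21, 13.43 to 13.97 and 10.98 to 11.58 in control. In knockout these sums ran from 14.90 to 14.98, were 14.21 on both arrays and ran from 12.26 to 12.34. The 7 endothelial markers had 3 higher and 4 lower fitted values (median −0.06), and 1 cholangiocyte and 1 adipocyte marker were tested, at −0.11 and −0.49. Cela1, a pancreatic elastase gene, was the 1 marker called, with 11.12 and 11.33 in control and 9.43 and 9.45 in knockout, a difference of −1.78 (adjusted p = 0.0341). The other pancreas marker represented, Cpa1, was detected on no array. The part of these cells in the results was not tested, and fewer cells of a type cannot be told apart from less RNA per cell.

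The genes lay on 17 chromosomes, and 67 of the 76 had a promoter entry in RefSeq's GRCm38.p6 sequences, which run from 250 bases before to 50 bases after the annotated start. The promoters of Mrps17, Mrps15 and Mrps21, the small subunit genes with the smallest p, are shown. So is that of Mrpl45, the large subunit gene with the smallest p, which was tested only through its knockout arrays. The part of these genes in the comparison of the subunits was not tested. The promoter of Mrps11 is shown because it is shared with a gene of the other subunit. Each runs 5′ to 3′ on the strand of its gene. Capitals mark matches, on either strand, to 6 motifs: the ETS core CCGGAAG, the NRF-1 site, the YY1 site AAGATGG, the GC box GGGCGG, the CCAAT box CCAAT and the TATA box TATAAA.
Mrps17, chr5:129715247-129715546, plus strand: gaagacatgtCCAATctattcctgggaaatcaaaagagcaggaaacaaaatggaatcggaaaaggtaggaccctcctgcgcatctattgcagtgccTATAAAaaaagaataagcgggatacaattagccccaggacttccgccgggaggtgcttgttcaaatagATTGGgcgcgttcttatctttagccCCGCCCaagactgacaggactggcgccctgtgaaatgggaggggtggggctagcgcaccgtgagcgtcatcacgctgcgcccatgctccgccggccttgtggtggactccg
Mrps15, chr4:126046678-126046977, plus strand: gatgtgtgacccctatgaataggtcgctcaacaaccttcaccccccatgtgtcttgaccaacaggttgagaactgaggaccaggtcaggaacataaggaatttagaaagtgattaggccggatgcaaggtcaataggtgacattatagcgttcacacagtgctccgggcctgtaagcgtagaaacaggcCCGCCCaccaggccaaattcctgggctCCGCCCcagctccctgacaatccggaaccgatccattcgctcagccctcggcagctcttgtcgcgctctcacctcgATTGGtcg
Mrps21, chr3:95871465-95871764, minus strand: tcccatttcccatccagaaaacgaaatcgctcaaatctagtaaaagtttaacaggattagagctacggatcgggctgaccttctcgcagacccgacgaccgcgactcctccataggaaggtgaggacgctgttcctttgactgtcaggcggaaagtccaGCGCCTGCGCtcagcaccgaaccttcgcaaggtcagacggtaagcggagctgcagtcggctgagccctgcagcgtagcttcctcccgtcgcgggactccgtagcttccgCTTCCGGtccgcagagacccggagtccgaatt
Mrps11, chr7:78782881-78783180, plus strand: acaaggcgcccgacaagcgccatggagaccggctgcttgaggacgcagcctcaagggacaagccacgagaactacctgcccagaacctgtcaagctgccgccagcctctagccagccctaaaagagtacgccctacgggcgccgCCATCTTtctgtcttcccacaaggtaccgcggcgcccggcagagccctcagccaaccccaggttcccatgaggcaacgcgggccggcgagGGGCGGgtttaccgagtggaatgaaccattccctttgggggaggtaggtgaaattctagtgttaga
Mrpl45, chr11:97315466-97315765, plus strand: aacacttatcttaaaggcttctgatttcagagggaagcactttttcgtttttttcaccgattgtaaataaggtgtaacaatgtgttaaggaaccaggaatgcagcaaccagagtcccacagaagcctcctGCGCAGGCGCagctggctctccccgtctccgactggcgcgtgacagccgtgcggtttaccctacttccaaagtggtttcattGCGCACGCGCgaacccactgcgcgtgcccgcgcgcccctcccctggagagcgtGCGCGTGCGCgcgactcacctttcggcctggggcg

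The Mrpl45 promoter held 3 matches to the NRF-1 site and no other match, and that of Mrps21 held 1 NRF-1 match and 1 ETS match. The Mrps17 promoter held a TATA match with 2 CCAAT matches and a GC box, and the Mrps15 promoter 2 GC boxes and a CCAAT match, with neither an ETS nor an NRF-1 match in either window. No matches overlapped within these 5 windows. Among all 73 promoter entries of the family, 35.6% held the ETS core, against 8.86% of all 32851 promoters, 16.4% the NRF-1 site against 4.6%, and 17.8% the YY1 site against 6.34%. The TATA box was found in 6.85% against 13.6%, the GC box in 53.4% against 35.7% and the CCAAT box in 39.7% against 37.4%. Matches overlapped in 7 of the 73, counting those of the same motif and of different motifs alike. Their median content of G and C was 58.7%, against 52.7% over all promoters. By subunit, the ETS core was present in 40.7% of small and 32.6% of large subunit promoters. Within the family, the 24 tested genes with an ETS match had a median difference of −0.13, and the 39 without one −0.07. The 11 with an NRF-1 match, Mrpl45 among them, had a median of 0.00 and the 52 without one −0.11. Mrpl45 passed the detection filter only through its knockout arrays, so that the NRF-1 median is tied to that filter. These are descriptions of letters in fixed windows.

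Neighbouring genes on the opposite strand were also counted. Of 67 family genes, 25 (37.3%) had another gene starting on the opposite strand within 1000 bases upstream, facing away, against 12.2% of all 27025 genes with a promoter entry. Mrps11 and Mrpl46 form such a pair, with starts 42 bases apart. Mrps11, the counterpart of bacterial S11 in the small subunit platform, had log2 values of 10.09 and 10.16 in control and 9.73 and 9.75 in knockout. Both knockouts lay below both controls, with a difference of −0.38 (SE 0.17, adjusted p = 0.367). Mrpl46, a large subunit protein found only in mitochondria, had 11.50 and 11.67 in control and 11.57 and 11.77 in knockout, with overlapping groups and a difference of 0.08 (SE 0.19, adjusted p = 0.876). Both partners thus failed the test, and the difference between them was not tested. Mrps12 starts 147 bases from Sars2, the mitochondrial seryl-tRNA synthetase gene, and the pair differed by 0.07 (SE 0.18) and 0.20 (SE 0.19).

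Of the 110 probes, 94 were above background on all 4 arrays, 14 on none, and 96 passed the detection filter. They represented 71 genes, 44 large and 27 small, of which 70 were detected on every array. Mrpl19, Mrpl21, Mrpl32, Mrps14 and Mrps36 were not above background on any array and were not tested; each had 1 probe. Mrps36 has since been assigned to the alpha-ketoglutarate dehydrogenase complex rather than to the ribosome.

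In the comparison of knockout with control, 0 of 71 genes were called, against 0.795% of all rows (74 of 9311). The smallest adjusted p in the family was 0.136, for Mrpl45. That gene passed the detection filter only through the knockout arrays, where it was high, so its p is not independent of the filter. Next came Mrps17, with an adjusted p of 0.177. By direction, 0.451% of all rows were called higher and 0.344% lower. The unadjusted limma p was below 0.05 for 6 members, or 8.45%, against 16.5% of all rows. Of these, 5 were lower, 7.04% against 7.07%, and 1, Mrpl45, was higher, against 9.45% of all rows. The family's share was thus at the background for lower values and under it for either direction. The 6 genes became 3 without control replicate 1. The knockout pair lay wholly below the control pair in 21 genes, 29.6% against 23.8% of all rows, and above them in 5, or 7.04%, against 24.8%. The median size of the difference was 0.14, against 0.25 over all rows. The gap between replicates had a median size of 0.16 in control and 0.18 in knockout, against 0.22 and 0.25 over all rows. The members were also brighter, with a median control level of 11.14 against 8.78, and the part of this in the smaller size was not tested.

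**Figure D1:**
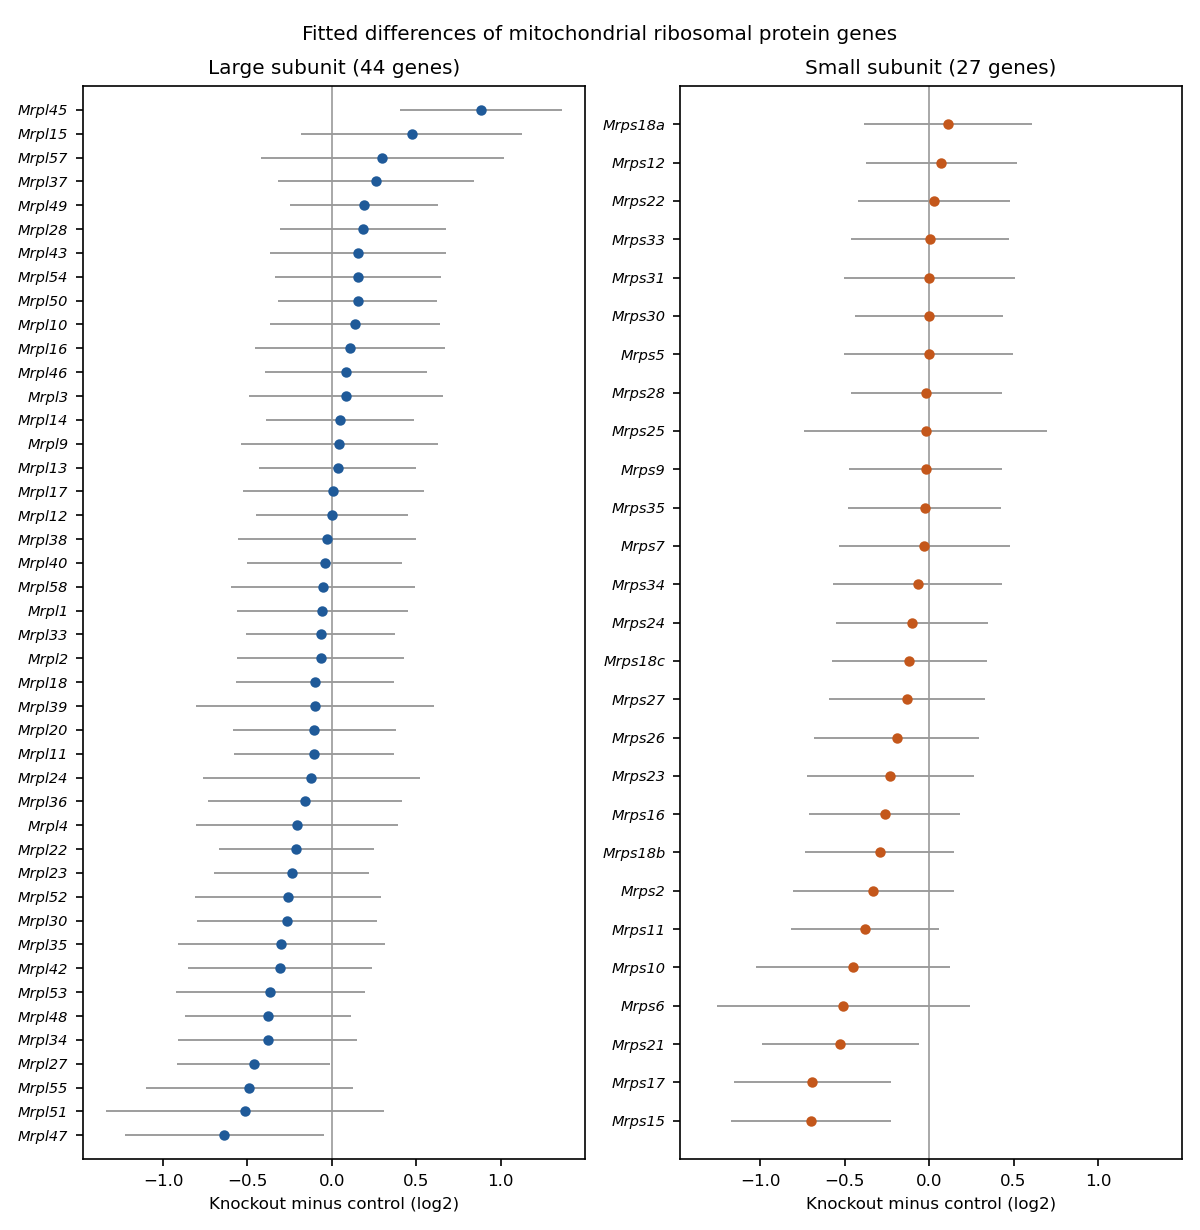
Fitted knockout minus control difference on the log2 scale (horizontal axis) of each tested large subunit gene (left) and small subunit gene (right), ordered by difference; points are the fit and bars its 95% confidence interval, n = 2 per group. The intervals of Mrpl45, Mrpl47, Mrpl27, Mrps17, Mrps15 and Mrps21 leave out 0, and none of the 71 genes passed the adjusted threshold.

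In the small subunit, the lowest values relative to control belonged to genes of 3 proteins with bacterial counterparts. Mrps17, the counterpart of S17, had log2 values of 12.55 and 12.51 in control and 11.74 and 11.94 in knockout. Both knockouts lay below both controls, whose own values were 0.03 apart. The difference was −0.69 (SE 0.18), 1.62-fold lower, with an adjusted p of 0.177 and a 95% interval from −1.15 to −0.23. It was the 1 member called under any alternative. This was with no background correction (−0.66, adjusted p = 0.0382) and with a robustly estimated variance prior that follows intensity (−0.69, adjusted p = 0.0317). Over all 9 alternatives that kept the arrays its adjusted p ran from 0.0317 to 0.261. When 1 array was left out, the difference ran from −0.80 to −0.60.

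Mrps15, the counterpart of S15, had 8.81 and 9.02 in control and 8.27 and 8.16 in knockout. The groups did not overlap, and the difference was −0.70 (SE 0.19), 1.63-fold lower (adjusted p = 0.179). It was −0.45 with no background correction, a change of over 1.5 times. Mrps21, the counterpart of S21, had 11.59 and 11.61 in control and 11.17 and 10.97 in knockout. Again both knockouts lay below both controls, by −0.53 on average (SE 0.18, adjusted p = 0.258). Mrps10, a counterpart of S10, had 10.42 and 10.32 in control and 9.68 and 10.16 in knockout, a difference of −0.45 (SE 0.23). It was −0.21 without knockout replicate 1 and −0.68 without knockout replicate 2.

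Smaller differences without overlap were found for Mrps2, the S2 counterpart (−0.33, SE 0.19), Mrps18b, a paralogue of S18 (−0.29, SE 0.18), and Mrps16, whose human form is mutated in a mitochondrial disease (−0.26, SE 0.18). Of the 27 small subunit genes, 10 (37%) had both knockouts below both controls and 1 above them, against 23.8% and 24.8% of all rows. Mrps6, the S6 counterpart, differed by −0.51 (SE 0.30), but its groups overlapped, with 9.87 and 10.39 in control and 9.92 and 9.32 in knockout. With 1 array left out it ran from −0.81 to −0.21, the ends being without knockout replicate 1 and without knockout replicate 2; it was −0.77 without control replicate 1 and −0.25 without control replicate 2. Mrps2 was at −0.22 with no background correction, at −0.21 with median scaling and at −0.21 without knockout replicate 1. At the other end, Mrps12, which lies at the decoding centre, differed by 0.07 (SE 0.18), and Mrps24, the counterpart of S3 at the entry of the messenger RNA channel, by −0.10 (SE 0.18). Mrps34, needed for the stability of the small subunit, differed by −0.07 (SE 0.20). For Mrps31, Mrps5 and Mrps30 the fitted difference rounded to 0.00, with 95% intervals from −0.50 to 0.51, from −0.50 to 0.50 and from −0.44 to 0.44. Intervals of this width do not show that the groups were equal.

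In the large subunit, Mrpl45 had the highest fitted difference of the family. The protein lies at the exit of the tunnel and holds the ribosome at the inner membrane. Its probe read 5.26 and 5.51 in control, not well above background on either array, and 6.25 and 6.28 in knockout, above background on both. The gene was thus tested only through its knockout arrays, and its difference and p are tied to that filter. Set against the lowest detected signal of the control arrays, it was at least 1.33-fold higher in knockout, a bound that holds only under this background correction, the adjusted p of the fit being 0.136. Its deposited intensities were 230.5 and 255.9 in control and 275.2 and 290.2 in knockout. The fitted difference of 0.88 ran from 0.24 with no background correction and 0.55 with an offset of 50 to 1.75 in the authors' processed values, and its size is therefore uncertain. A further probe of the gene was not above background on any array.

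Mrpl47, the counterpart of L29 beside the tunnel exit, had 10.76 and 10.65 in control and 9.82 and 10.32 in knockout. The knockouts lay below the controls and 0.50 apart from each other, and the difference was −0.64 (SE 0.23, adjusted p = 0.280). It was −0.39 without knockout replicate 1. Mrpl27, the counterpart of L27 close to the peptidyl transferase centre, had 11.90 and 11.98 in control and 11.41 and 11.55 in knockout, a difference of −0.46 (SE 0.18, adjusted p = 0.297).

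Mrpl55, the counterpart of L31, differed by −0.49 (SE 0.24), Mrpl48 by −0.38 (SE 0.20), Mrpl34, the counterpart of L34, by −0.38 (SE 0.21) and Mrpl53 by −0.37 (SE 0.22), Mrpl48 and Mrpl53 being found only in mitochondria. In these 4 both knockouts lay below both controls, and knockout replicate 1 was the lower of the 2. Of the 44 large subunit genes, 11 (25%) had both knockouts below both controls and 4 above them, against 23.8% and 24.8% of all rows. Without knockout replicate 1, Mrpl55 was at −0.25, Mrpl34 at −0.20 and Mrpl53 at −0.15, and without knockout replicate 2 Mrpl34 was at −0.57 and Mrpl53 at −0.60. Mrpl15, the counterpart of L15, differed the other way, by 0.47 (SE 0.26), with 7.08 and 7.72 in control and 7.84 and 7.89 in knockout. It was 0.22 with no background correction, 0.16 without control replicate 1 and 0.79 without control replicate 2. Mrpl12, the stalk protein that brings translation factors to the ribosome, had 12.75 and 12.88 in control and 12.85 and 12.78 in knockout, a difference of 0.00 (95% interval −0.45 to 0.45). Mrpl38 and Mrpl17 differed by −0.03 (SE 0.21) and 0.01 (SE 0.21), and Mrpl28, the counterpart of L28, by 0.19 (SE 0.20).

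**Figure D2:**
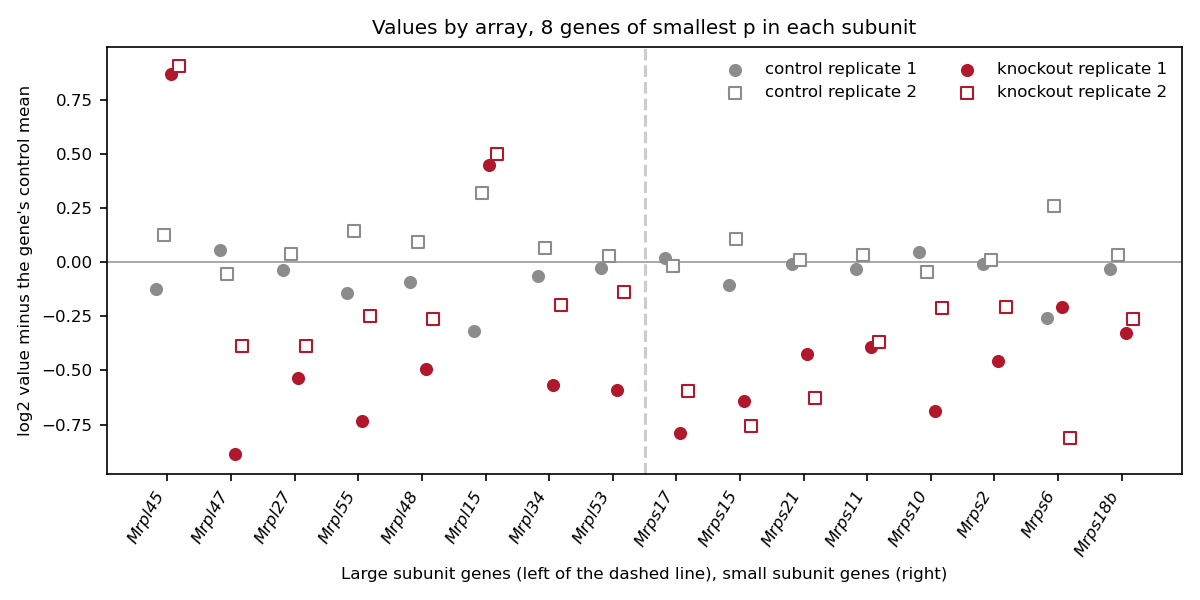
Log2 value of each array minus the gene's control mean (vertical axis) for the 8 genes with the smallest p in the large subunit (left of the dashed line) and in the small subunit (right); grey marks are control, red marks knockout, circles replicate 1 and squares replicate 2. Mrps17, Mrps15 and Mrps21 had both knockouts at least 0.42 below the control mean, while in Mrpl47 the knockouts were 0.50 apart.

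Setting the subunits side by side, the median difference was −0.10 in the small subunit (range −0.70 to 0.11). It was −0.06 in the large one (range −0.64 to 0.88, the upper end being Mrpl45), against 0.01 over all rows. Of small subunit genes 81.5% had a fitted difference below 0, and of large subunit genes 59.1%, against 49.4% of all rows. With arrays scaled to a common median in place of quantile normalization, the median over all rows itself rose to 0.09, the small subunit had 15 of 27 genes below 0 (median −0.05) and the large one 22 of 44 (median 0.00). Both subunits therefore stayed below the median of all rows under that scaling, although the sign of the large subunit was lost. Without control replicate 2 the medians were −0.06 for the small and 0.04 for the large subunit, and without control replicate 1 they were −0.17 and −0.13. The large subunit median was −0.02 without knockout replicate 1 and −0.13 without knockout replicate 2, so that its sign and size rest on which arrays are included.

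**Figure D3:**
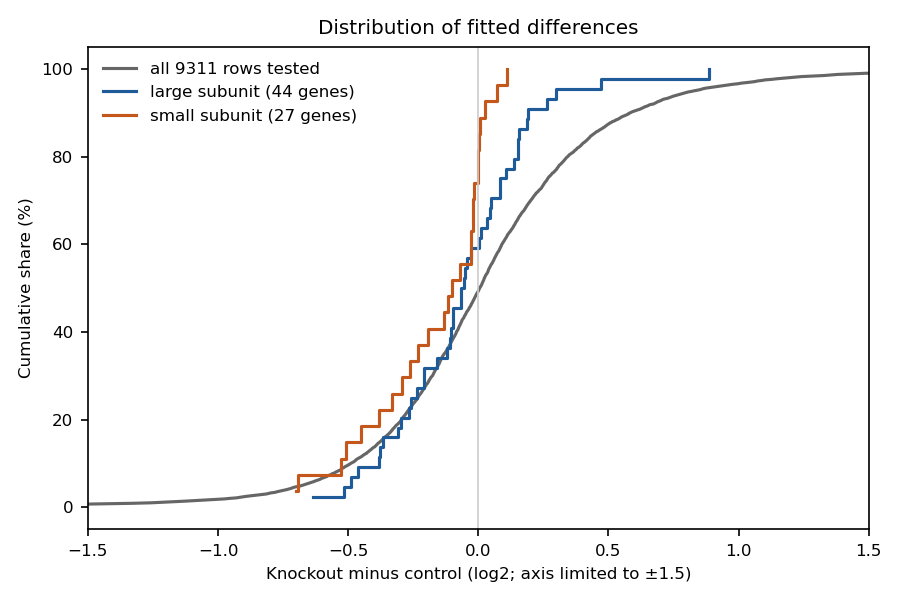
Cumulative share of genes in percent (vertical axis) against the fitted knockout minus control difference on the log2 scale (horizontal axis, limited to 1.5 on each side) for the 44 large and 27 small subunit genes and all 9311 rows. The small subunit curve ends at 0.11, while the large subunit curve reaches 0.88 at Mrpl45, which was tested only through its knockout arrays.

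The mean over the tested large subunit genes was 10.69 and 10.90 on the control arrays and 10.68 and 10.79 on the knockout arrays. For the small subunit it was 10.97 and 11.06 in control and 10.81 and 10.85 in knockout. Both knockouts thus lay below both controls for the small subunit, and the groups overlapped for the large one. The large minus the small subunit mean was −0.28 and −0.16 in control and −0.14 and −0.06 in knockout, a mean change of 0.12, while the SD between replicates was 0.08 in control and 0.05 in knockout. The groups narrowly did not overlap, and the change was 0.06 without control replicate 1 and 0.06 without knockout replicate 2. No p is given for such a mean, since the members were chosen with results known. Mrpl45, tested only through its knockout arrays, is part of the large subunit mean. Levels of different probes cannot be set against each other, so that only the change between arrays has meaning.

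**Figure D4:**
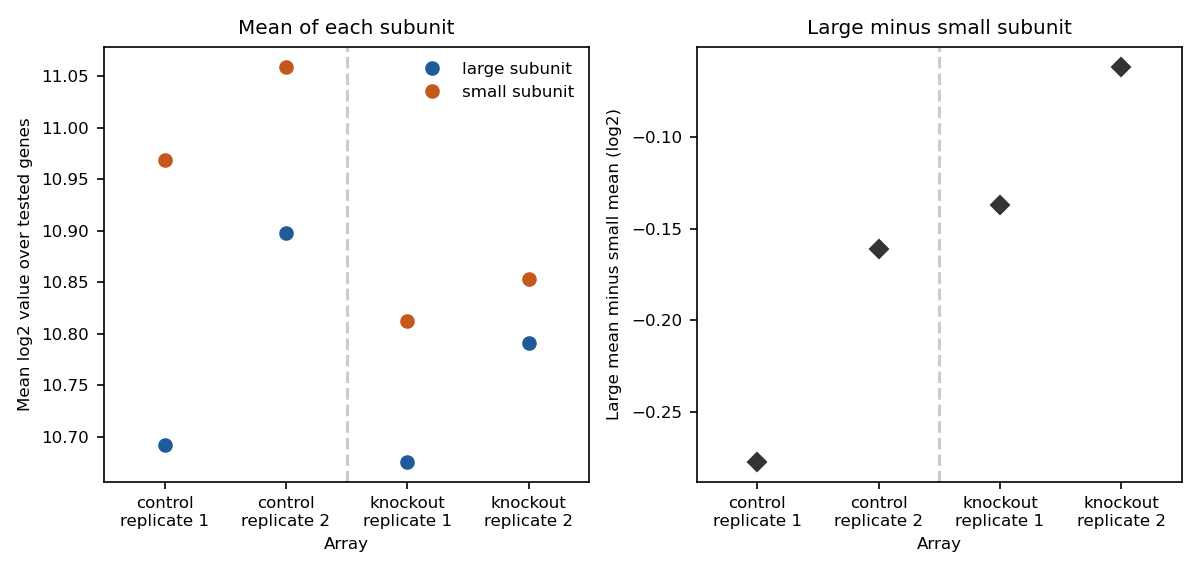
Left, mean log2 value over the tested genes of the large and small subunit on each array; right, the large mean minus the small mean on each array, with controls left and knockouts right of the dashed line. The small subunit mean was 10.97 and 11.06 in control and 10.81 and 10.85 in knockout.

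Mrps30 and Mrps18a carry small subunit names but sit in the large subunit in structures of the mammalian ribosome. Mrps30 had 11.50 and 11.46 in control and 11.47 and 11.49 in knockout, and Mrps18a 11.02 and 11.23 in control and 11.12 and 11.35 in knockout (difference 0.11, SE 0.20). In both genes the groups overlapped. Counted with the large subunit, they left 21 of 25 small subunit genes below 0 with a median of −0.12, and 27 of 46 large subunit genes with a median of −0.05, and the large minus small mean then changed by 0.14.

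Proteins with a bacterial counterpart and those found only in mitochondria were also separated, a split made after the values had been seen. Of 15 small subunit genes with a bacterial counterpart, 14 had differences below 0, Mrps12 being the exception, with a median of −0.26, against 49.4% of all rows below 0. Both knockouts lay below both controls in 7 of these 15 and in 8 of the 27 large subunit genes with a counterpart, against 23.8% of all rows. Of 12 small subunit genes classed as found only in mitochondria 8 were below 0, with a median of −0.02. Subunit was taken from the name here, so that these 12 include Mrps30 and Mrps18a, which sit in the large subunit. They also include Mrps18b, described above as a paralogue of S18. In the large subunit the medians were −0.10 for 27 genes with a counterpart and −0.03 for 17 without. The difference between these classes was not tested.

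Further probes gave a check within the same arrays. Of 20 genes with more than 1 tested probe, 13 had differences of 1 sign on all of them. Among the genes described above, Mrps10 differed by −0.45 and −0.58 on its probes, Mrps11 by −0.38 and −0.34, Mrps18b by −0.29 and −0.38, Mrpl47 by −0.64 and −0.56 and the 3 probes of Mrpl48 by −0.38 to −0.22. Mrps17, Mrps15 and Mrps21 had no further probe. Probes disagreed in sign for Mrpl3, Mrpl43, Mrpl49, Mrps25, Mrps26, Mrps31 and Mrps33. In Mrpl49 the representing probe differed by 0.19 and the other 3 by −0.75 to −0.10, and in Mrpl3, the counterpart of L3, the probes differed by 0.08 and −0.65. The remaining disagreements were −0.44 to 0.19 in Mrps25, −0.19 and 0.27 in Mrps26, 0.15 and −0.07 in Mrpl43, −0.09 to 0.00 in Mrps31 and 0.00 and −0.12 in Mrps33. No tested probe of any member passed when every probe was tested on its own (smallest adjusted p = 0.166).

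**Figure D5:**
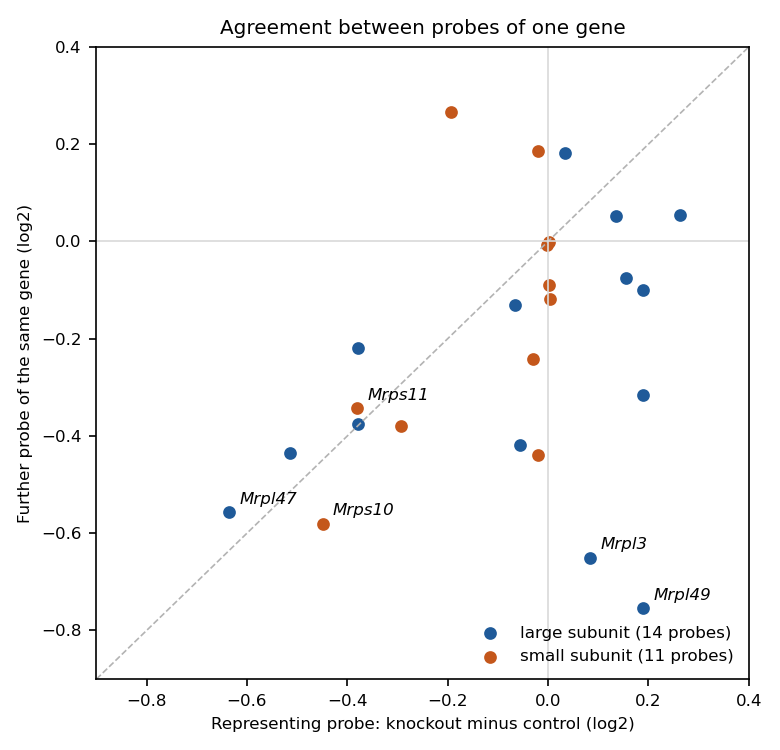
Difference of each further tested probe (vertical axis) against that of the probe that represents the same gene (horizontal axis), both knockout minus control on the log2 scale, for 14 large and 11 small subunit probes; the dashed line marks equality. Probes of Mrps10, Mrps11 and Mrpl47 lie near the line, and a probe of Mrpl49 (−0.75) and one of Mrpl3 (−0.65) lie far below it.

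The other genes of mitochondrial translation gave 0 calls in each list, against 0.795% of all rows. The lists held 3 to 19 tested genes, so that 0 calls does not set them apart from that share. Of 3 measured ribosomal proteins with other names, Dap3, a GTP-binding small subunit protein, differed by 0.24 (SE 0.17), Ptcd3, an RNA-binding small subunit protein, by −0.28 (SE 0.20) and Chchd1 by 0.00 (SE 0.19). Ptcd3 was at −0.17 with no background correction, at −0.14 with median scaling, at −0.43 without control replicate 1 and at −0.13 without control replicate 2. Among 13 translation factors (median 0.13), 1 (7.69%, against 7.07% of all rows) was lower at an unadjusted p under 0.05: Lrpprc, which stabilizes mitochondrial messenger RNA, with 10.68 and 10.72 in control and 9.80 and 10.21 in knockout (−0.70, SE 0.22, adjusted p = 0.217). Its partner Slirp differed by −0.46 (SE 0.19) and the ribosome recycling factor gene Mrrf by −0.46 (SE 0.21), and in all 3 both knockouts lay below both controls. Among the 13 factors both knockouts lay below both controls in 5 (38.5%) and above them in 3, against 23.8% and 24.8% of all rows. With the mean of probes Slirp was at −0.30. The 15 genes of aminoacyl-tRNA synthesis had a median of 0.04, with Pars2 at 0.45 (SE 0.23), Lars2 at 0.43 (SE 0.23) and Gatc at 0.32 (SE 0.18). Pars2 was at 0.15 with no background correction and at 0.21 without knockout replicate 2, and Lars2 at 0.66 and 0.21 without knockout replicate 1 and 2.

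Among 19 assembly and rRNA modification genes (median −0.03), C1qbp, a matrix protein needed for mitochondrial translation, had 9.56 and 9.95 in control and 10.48 and 10.72 in knockout. The difference was 0.84 (SE 0.22, adjusted p = 0.174). With a robustly estimated variance prior that follows intensity, its adjusted p was 0.0473. Mtg1, a GTPase of large subunit assembly, differed by −0.73 (SE 0.20) and Ybey, an endoribonuclease, by −0.64 (SE 0.25). With no background correction these were −0.33 and −0.25, and Ybey was at −0.36 without knockout replicate 2. Of 11 regulators of mitochondrial transcription and biogenesis (median 0.03), the nuclear receptor gene Esrra had 11.08 and 10.95 in control and 10.55 and 10.39 in knockout, a difference of −0.54 (SE 0.18, adjusted p = 0.247). Gabpa, the DNA-binding subunit of an ETS family factor, had 6.93 and 6.80 in control and 6.16 and 6.49 in knockout, a difference of −0.54 (SE 0.20, adjusted p = 0.289) that was −0.17 with no background correction. Polrmt, the mitochondrial RNA polymerase gene, differed by 0.29 (SE 0.18).

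Beside other large assemblies, cytosolic ribosomal protein genes had a median difference of −0.22, with 47 of 51 genes below 0 (92.2%, against 49.4% of all rows) and 1 called lower, against 0.344% of all rows, and genes of the respiratory chain and ATP synthase had a median of −0.14, with 58 of 71 below 0 (81.7%) and 0 called. The small subunit median of −0.10 and the large subunit median of −0.06 were thus nearer to 0 than either. Differences between these families were not tested.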

How the data were processed

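Whole-liver RNA of 2 control and 2 knockout samples was measured on Illumina bead arrays. Per the file headers, the authors deposited mean bead intensity with a detection p-value for each probe, labelled non-normalized. The arrays shared a mean of 1187, so they had been scaled. A second table the authors deposited holds processed intensity on a linear scale, in part below 0, its background correction and normalization not given in the sources used here; it served as an alternative. Rows without a probe identifier (4) were left out.

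Intensities were corrected, quantile-normalized and taken to log2 with neqc (offset 16) of limma 3.58.1 in R 4.3.3. Probes with detection p under 0.05 on at least 2 arrays (12197) were kept, and the brightest kept probe stood for each gene, giving 9311 rows (8579 genes and 732 probes without a symbol). Symbols came from the platform annotation (23978 probes with 1, 1719 with none), and all 76 family symbols matched the GRCm38.p6 gene table. The contrast of knockout and control was fitted with lmFit and eBayes, two-sided, with Benjamini-Hochberg adjustment over all rows, on 2 residual and 3.37 prior degrees of freedom; the number of arrays limits the precision. The fit was also run on simulated data drawn from its own variance model. The simulated differences were larger than those of the members, so that the run does not show how differences of their size fare.

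The members and gene lists were chosen with earlier results of these data known. Genes named in the text are, in each subunit, the 8 of smallest p, the 3 of highest mean and the 3 of smallest difference, members with disagreeing or undetected probes, Mrps30, Mrps18a, the 3 of smallest p in each list and Ptpn11; Mrps16, Mrpl46, Sars2 and the marker genes were added after their values were seen. Alternatives varied the background correction, scaling, offset, filter, probe summary, variance prior, subunit assignment and the arrays included.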

Additional observations from a re-analysis of the deposited data

How the results depend on the processing

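No paired analysis was possible because the labels number the knockout samples and not the controls. The count of all rows called was 74 and became 321 with no background correction, 160 with an offset of 50, 367 with a variance prior that follows intensity, 46 with every probe on its own and 15 with the authors' processed values, and 0 to 4 with 1 array left out. Mitochondrial ribosomal protein genes called stood at 0, and at 1, Mrps17, with no background correction and with the variance prior that follows intensity. Those at an unadjusted p under 0.05 became 11 with no background correction and 3 to 6 with 1 array left out. The median difference of the small subunit ran from −0.17 to −0.060 with 1 array left out. In those fits 1 group holds a lone sample, assumed to vary like the other group, and lost calls also follow from fewer samples.

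Of 634 values recomputed for the 49 named genes with a value, 594 kept their direction and side of the threshold, 33 changed sign and 7 newly passed. Every change of sign was of a gene with a main difference under 0.2 in size, and the cause was not tested. With median scaling, Mrps30 was at 0.057, Mrps5 at 0.10, Mrps25 at 0.14 and Chchd1 at −0.053. With the mean of probes, Mrps31 was at −0.030, Mrpl3 at −0.28, Mrpl49 at −0.24, Mrps26 at 0.036 and Mrps33 at −0.057; averaging probes that disagree in sign gives this. With 1 array left out, Mrpl12 ran from −0.058 to 0.063, Mrpl17 from −0.14 to 0.16, Mrps30 from −0.023 to 0.018, Mrps5 from −0.13 to 0.13, Mrpl43 from −0.023 to 0.33, Mrps33 from −0.085 to 0.10, Mrpl38 from −0.21 to 0.15, Mrps34 from −0.20 to 0.058, Mrps31 from −0.16 to 0.16, Mrpl3 from −0.11 to 0.28, Mrps25 from −0.38 to 0.34, Chchd1 from −0.10 to 0.11 and Mrps18a from −0.0017 to 0.23. Signal over background limits Mrpl45, whose control arrays were not above background, and the 5 genes detected on no array. Mrpl45 had no value where detection on every array was required or where a knockout array was left out.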

Other observations

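Rpusd4, a pseudouridine synthase gene of the assembly list, was singled out after its values were seen. Its log2 values were 9.27 and 9.45 in control and 5.88 and 8.83 in knockout, a difference of −2.01 (SE 0.92, limma adjusted p = 0.364). Knockout replicate 1 lay 2.95 below knockout replicate 2.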
